A study of Mus musculus with 6 samples.

Results

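The genes described here are 7 receptors through which hormones act on Sertoli cells: Fshr (follicle-stimulating hormone, FSH), Nr3c1 (glucocorticoids), Thra and Thrb (thyroid hormone), and Esr1, Esr2 and Gper1 (oestrogens). They were taken by name from the deposited transcript tables, where they are 7 of 49203 gene names and hold 43 of 153503 transcripts. Their transcripts were measured by total RNA sequencing of mouse Sertoli cell lines that express a GFP reporter of the Y chromosome (GFP-positive 2, 4 and 7) and of Sertoli cell lines that do not (GFP-negative 9, 11 and M). The labels call the phenotype of the lines green or non-green, and the strain, age, promoter of the reporter and origin of each line do not stand in the labels. Nothing in the labels says whether the 3 libraries of a group came from separate animals or cultures, and the p-values therefore describe the spread among these libraries, which may be technical.

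Sertoli cells are the somatic cells of the seminiferous tubule that nurse germ cells, and they receive the hormonal signals on which spermatogenesis depends. FSH acts through a G protein-coupled receptor at the cell surface that raises cyclic AMP. Glucocorticoid, thyroid hormone and classical oestrogen receptors are nuclear receptors, transcription factors whose activity is set by their ligand; thyroid hormone is known to end the proliferation of immature Sertoli cells. GPER1 is a membrane receptor that responds to oestrogens.

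The promoter of Fshr is known for an E-box, the motif CACGTG, which is bound by the upstream stimulatory factors USF1 and USF2. In the RefSeq promoter table (GRCm38.p6), 5 of the 7 receptors had a window that could be matched, and the E-box was found in 3 windows, among them that of Fshr. They are shown so that the motif can be seen in place. Each line gives the bases upstream of the gene's start on the gene's own strand, with the E-box in capitals. The Fshr window is chr17:89200676-89200925 on the minus strand, the Esr2 window is chr12:76177260-76177509 on the minus strand, and the Thrb window, before the start of the isoform that encodes TRβ2, is chr14:17981394-17981528 on the plus strand and leaves out bases that lie in exons of other transcripts.
Fshr: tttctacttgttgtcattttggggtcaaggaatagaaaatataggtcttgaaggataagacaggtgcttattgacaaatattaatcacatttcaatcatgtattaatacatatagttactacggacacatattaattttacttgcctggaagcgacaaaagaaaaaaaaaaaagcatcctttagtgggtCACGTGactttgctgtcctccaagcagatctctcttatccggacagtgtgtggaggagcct
Esr2: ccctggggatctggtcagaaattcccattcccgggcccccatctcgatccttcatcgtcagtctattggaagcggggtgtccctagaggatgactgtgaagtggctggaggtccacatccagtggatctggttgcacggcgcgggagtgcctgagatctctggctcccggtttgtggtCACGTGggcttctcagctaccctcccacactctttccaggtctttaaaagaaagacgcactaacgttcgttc
Thrb, TRβ2 start: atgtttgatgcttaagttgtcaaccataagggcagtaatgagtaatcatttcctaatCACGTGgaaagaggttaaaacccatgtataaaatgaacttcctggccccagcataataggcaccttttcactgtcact
The motif ended 55 bases before the end of the Fshr window, 66 bases before the end of the Esr2 window and 72 bases before the end of the Thrb window. The Thrb window was cut at the first exon base and kept 135 bases, against 250 each for Fshr and Esr2. It thus ends short of the TRβ2 start, and its 72 bases are not a distance to that start. CACGTG reads the same on both strands and occurred in 6.0% of all 32851 windows searched. The TATA box TATAAA, searched on both strands and present in 12.4% of windows, was in the TRβ2 window and in neither of the others shown. A match is a run of letters and not a shown binding site.

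Thra makes 2 proteins from a shared 5′ part. TRα1 binds thyroid hormone, while TRα2 has another C-terminus and does not bind it. In GENCODE M21 (GRCm38, plus strand), the coding sequences of ENSMUST00000103139, which encodes TRα1 (410 amino acids), and ENSMUST00000064187, which encodes TRα2 (492 amino acids), are identical over their first 1111 bases. The last shared base is chromosome 11 position 98764406. They are shown across this fork, with 30 shared bases in lower case followed by the first 90 bases of each isoform's own sequence in capitals, because the coding part beyond it tells the isoforms apart.
TRα1: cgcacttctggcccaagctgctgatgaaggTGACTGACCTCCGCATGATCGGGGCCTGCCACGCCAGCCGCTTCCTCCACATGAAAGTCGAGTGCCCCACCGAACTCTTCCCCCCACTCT
TRα2: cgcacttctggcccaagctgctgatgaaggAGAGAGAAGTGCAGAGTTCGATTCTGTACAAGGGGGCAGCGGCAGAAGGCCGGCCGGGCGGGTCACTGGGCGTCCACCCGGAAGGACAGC

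The libraries held 11.2, 11.8 and 11.3 Gb of aligned bases in the GFP-positive group and 10.02, 9.67 and 8.25 Gb in the GFP-negative group. Levels are FPKM, fragments per kilobase of transcript corrected for sequencing depth, scaled so that the median gene was equal across libraries. Of the 10 Sertoli markers, 9 had a mean of at least 0.5 FPKM, and their summed level was 1687.5 to 3483.2 in GFP-positive and 751.5 to 3407.5 in GFP-negative libraries; Rhox5 was near 0 in all 6. Clu made up most of that sum, and single markers moved: Sox9 was lower in GFP-positive cells (11.7 ± 4.15 FPKM) than in GFP-negative cells (44.3 ± 10.1 FPKM; log2 change -1.91, adjusted p = 0.00799), as was Gata4, while Trf was at 57.0 ± 21.3 FPKM in GFP-positive and 21.3 ± 12.1 FPKM in GFP-negative cells and did not pass (1.56, adjusted p = 0.0530). Of the 8 germ cell markers, 6 had a mean of at least 0.5, with sums of 19.7 to 115.3 in GFP-positive against 0.444 to 2.13 in GFP-negative libraries, and Prm1 and Prm2 at 0. The 4 fibroblast markers summed to 9.76 to 17.6 in GFP-positive and 15.7 to 700.7 in GFP-negative libraries, where Col1a1 alone had 690.9 in GFP-negative 11. Pdgfra was also highest in GFP-negative 11 and M (8.18 and 2.31). Dcn went the other way, at 7.75 ± 5.87 FPKM in GFP-positive and 3.49 ± 2.00 FPKM in GFP-negative cells, and was lowest in GFP-negative 11 (1.58). Its difference did not pass (adjusted p = 0.210), and Lum was near 0 in all libraries. The 5 peritubular myoid markers spanned 48.8 to 466.8 in GFP-positive and 136.1 to 532.8 in GFP-negative libraries, and the 6 Leydig markers 35.1 to 86.5 against 71.4 to 87.3. Acta2 made up most of the myoid sum; Myh11 (log2 change -2.50, adjusted p = 0.0464), Actg2 (-2.19, 0.0411) and the Leydig marker Insl3 (-1.64, 0.0489) were lower in GFP-positive cells. Macrophage markers (5) summed to 1.63 to 2.23 against 3.60 to 7.98, endothelial markers (4) to 3.49 to 6.31 against 7.67 to 12.4, and granulosa markers (3) to 7.39 to 25.5 against 17.005 to 22.6. Lyz2 made up most of the macrophage sum in GFP-negative libraries and was lower in GFP-positive cells (log2 change -1.88, adjusted p = 0.0121). Cd68 went the other way, at 1.12 against 0.874 FPKM, and did not pass (adjusted p = 0.546). Cdh5 made up most of the endothelial sum and did not pass (-0.92, adjusted p = 0.0620). Pecam1 was at 0.392 against 0.356 FPKM. The remaining markers on both lists had means under 0.5 FPKM and were lower by mean in GFP-positive cells. In the granulosa sum, Fst had 22.5 FPKM in GFP-positive 2 and did not pass (adjusted p = 0.802). Runx1 was lower in GFP-positive cells (log2 change -1.35, adjusted p = 0.0198). Foxl2, with a mean under 0.5, had at most 0.0487 FPKM in GFP-positive and at least 0.118 FPKM in GFP-negative libraries. The part of these cell type markers in the results that follow was not tested.

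Thra was the most abundant receptor and, by group mean, the oestrogen receptors were listed at the lowest values in both groups. The mean over the 6 libraries was 18.2 FPKM for Thra, 3.15 for Nr3c1, 1.39 for Fshr, 0.549 for Thrb, 0.442 for Esr1, 0.208 for Esr2 and 0.133 for Gper1. Thra lay above every other receptor in every library. The ranges of Nr3c1 (1.66 to 5.24) and Fshr (0.989 to 1.77) met, Fshr stayed above Thrb (0.170 to 0.829), and the ranges of Thrb, Esr1, Esr2 and Gper1 ran into each other. Esr1 also reached into the range of Fshr: in GFP-negative 11 it had 1.27, against 1.21 for Fshr and 0.829 for Thrb. Among 13595 named genes above the filter, whose median was 4.54 FPKM, 83.7% were lower than Thra, 39.7% lower than Nr3c1, 20.4% lower than Fshr and 1.71% lower than Thrb. The filter was a mean of 0.5 FPKM: Thrb lay just above it, and Esr1, just below it, was left out of the test with Esr2 and Gper1.

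None of the 4 receptors tested differed between GFP-positive and GFP-negative cells at an adjusted p under 0.05 (limma, Benjamini-Hochberg over all genes), and none of them had an unadjusted p under 0.05. Over all 15117 genes tested, 3915 passed (25.9%), 2186 higher (14.5%) and 1729 lower (11.4%) in GFP-positive cells, and 6399 had an unadjusted p under 0.05. Of the 15117, 13595 carry a gene name and the rest are unnamed assembled loci, and both are meant by all genes below. A p that misses the threshold does not show that the groups were alike, so the 95% interval of each difference is given. In these libraries fewer cells of a type and less RNA per cell cannot be told apart.

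**Figure D1:**
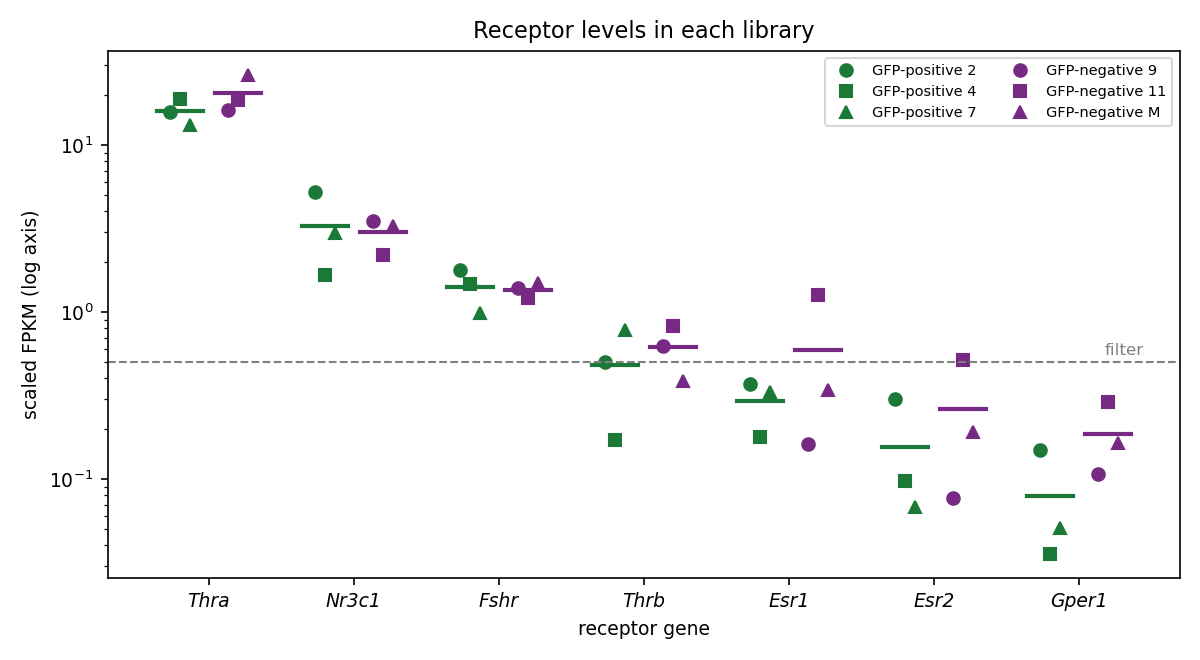
Level of each receptor gene in each of the 6 libraries, as scaled FPKM on a log axis; green symbols are GFP-positive libraries, purple symbols GFP-negative libraries, horizontal bars are group means and the dashed line is the filter of 0.5. Thra sits between 13.1 and 26.4 in all libraries, Nr3c1 and Fshr between 0.989 and 5.24, and GFP-negative 11 is the highest library for Esr1, Esr2 and Gper1.

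Fshr encodes the FSH receptor, a marker of Sertoli cells in the testis. It has 1 named transcript in the tables, ENSMUST00000035701 (2360 nt, chromosome 17, 89292380 to 89508103, minus strand, mm39), which codes for 692 amino acids. Its level was 1.77, 1.48 and 0.989 FPKM in GFP-positive libraries 2, 4 and 7, against 1.39, 1.21 and 1.49 FPKM in GFP-negative libraries 9, 11 and M. The groups overlapped: GFP-positive libraries held both the highest and the lowest value. Means were 1.41 ± 0.396 FPKM in GFP-positive and 1.36 ± 0.140 FPKM in GFP-negative cells (SD, n = 3 each). The log2 difference was 0.02 (SE 0.28, 95% interval -0.62 to 0.66, adjusted p = 0.965). Each library had 25.5 to 51.8 kb of aligned sequence on this transcript.

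With both directions pooled, genes known to act downstream of the FSH receptor passed the test no more often than genes in general. Of 22 tested members of the FSH signalling list, 0 rose, 4 fell and 18 did not pass. That is 18.2% called, all of them lower, against 25.9% of all genes (14.5% higher and 11.4% lower). The median log2 change was -0.44, against 0.02 over all genes. Whether the list differs from other genes in direction was not tested. Prkar2a, a regulatory subunit of the cyclic AMP-dependent kinase PKA, fell by 1.502 on the log2 scale (adjusted p = 0.0228), with 2.70, 3.33 and 3.03 FPKM in GFP-positive and 5.39, 15.9 and 9.68 FPKM in GFP-negative libraries. Adcy3, an adenylyl cyclase, fell by 1.35 (adjusted p = 0.0307). Adcy7, another cyclase, fell by 1.32 (adjusted p = 0.0360). The fourth gene that fell was Gnaq, the alpha subunit of Gq, with a log2 change of -0.84 (adjusted p = 0.039). Gnas, which encodes the stimulatory G protein alpha subunit that couples the receptor to adenylyl cyclase, was abundant, with 204.3, 198.0 and 187.3 FPKM in GFP-positive and 256.4, 304.9 and 265.9 FPKM in GFP-negative libraries. Its groups did not overlap, but the difference did not pass (log2 change -0.48, adjusted p = 0.206). Gnas and Gnaq are named after their values were seen. The list had 0 calls when GFP-positive 7, GFP-negative 11 or GFP-negative M was left out, 1 without GFP-positive 2 or GFP-positive 4, and 6 without GFP-negative 9. It also had 0 calls without the filter and 0 with a trend with transcript length removed, where the log2 change was -1.01 for Prkar2a (adjusted p = 0.0907), -0.88 for Adcy3 (0.124) and -0.73 for Adcy7 (0.207).

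Among 8 factors known from the Fshr promoter, all tested, 2 fell, 0 rose and 6 did not pass (25% called, against 25.9% of all genes), with a median log2 change of -0.32. Usf1, whose product binds the E-box printed above, had 8.45, 8.60 and 5.44 FPKM in GFP-positive and 12.5, 16.2 and 21.7 FPKM in GFP-negative libraries. Every GFP-positive library was below every GFP-negative one (log2 change -1.10, SE 0.30, adjusted p = 0.0305). Gata4, a Sertoli cell transcription factor, had 0.874, 2.43 and 1.82 FPKM in GFP-positive and 11.7, 3.10 and 8.79 FPKM in GFP-negative libraries, again without overlap (log2 change -1.81, SE 0.48, adjusted p = 0.0285). Usf2, which encodes the partner of USF1, had 1.34 ± 0.907 FPKM in GFP-positive and 1.23 ± 1.12 FPKM in GFP-negative cells (log2 change 0.15, adjusted p = 0.833), and Nr5a1, which encodes steroidogenic factor 1, had 28.8 ± 7.10 FPKM in GFP-positive and 21.9 ± 4.91 FPKM in GFP-negative cells (log2 change 0.39, adjusted p = 0.328); both are named after their values were seen. The adjusted p without GFP-negative M was 0.128 for Usf1 and 0.111 for Gata4. Leaving out any of the 6 libraries ended the call of Usf1, other than GFP-negative 9 (0.0137), and that of Gata4, other than GFP-negative 11 (0.0184). With the length trend removed Gata4 was at -0.98 (adjusted p = 0.192), and without the filter on low genes neither passed (Usf1 0.0799, Gata4 0.106).

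Nr3c1 encodes the glucocorticoid receptor (chromosome 18, 39543598 to 39652474, minus strand, mm39). Its 9 named transcripts together had 5.24, 1.66 and 2.99 FPKM in GFP-positive and 3.52, 2.18 and 3.29 FPKM in GFP-negative libraries. GFP-positive 2 was the highest and GFP-positive 4 the lowest of all 6, so the GFP-negative range lay inside the GFP-positive one. The means were 3.29 ± 1.81 FPKM in GFP-positive and 3.00 ± 0.715 FPKM in GFP-negative cells (SD, n = 3 each), a log2 difference of 0.03 (SE 0.39, 95% interval -0.85 to 0.90, adjusted p = 0.967). A further isoform that the assembly gave no gene name, MSTRG.9737.1, held 22.3%, 49.5% and 39.8% of the FPKM of the locus in GFP-positive and 39.4%, 60.6% and 22.2% in GFP-negative libraries. With it, the gene had 6.75, 3.28 and 4.96 FPKM in GFP-positive and 5.81, 5.54 and 4.23 FPKM in GFP-negative libraries, and the log2 difference was -0.09.

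The isoforms of Nr3c1 were divided differently among the libraries. ENSMUST00000115567, with 9 exons, had 0.798, 0.679 and 1.83 FPKM in GFP-positive and 0.105, 0.0676 and 0 FPKM in GFP-negative libraries. The groups did not overlap, and the difference stood just outside the threshold (log2 difference 1.46, SE 0.36, adjusted p = 0.0567 over 34630 transcripts, of which 6.10% passed). It passed without GFP-negative 9 (adjusted p = 0.0494) and with a weight for each library (0.0138), while leaving out any other single library gave adjusted p-values of 0.0948 to 0.173 and dropping the filter gave 0.154. ENSMUST00000115571, with 8 exons, had 3.49, 0.161 and 0.287 FPKM in GFP-positive and 2.98, 1.31 and 3.05 FPKM in GFP-negative libraries, so GFP-positive 4 and 7 were low and GFP-positive 2 was as high as the GFP-negative libraries (log2 difference -1.14, adjusted p = 0.311). Both code for a receptor of 792 amino acids, and they end within a few bases of each other. The 9-exon isoform held 15.2%, 41.0% and 61.1% of the named FPKM of the gene in GFP-positive libraries and 2.98%, 3.10% and 0% in GFP-negative libraries. These shares leave out the unnamed MSTRG.9737.1, whose 5′ end lies at the same base, 39623727, as that of the 9-exon isoform. It had 1.51, 1.62 and 1.97 FPKM in GFP-positive and 2.29, 3.36 and 0.941 FPKM in GFP-negative libraries. The separation of the groups thus holds for the named 9-exon isoform and was not shown for all transcripts from this start. Of the 9 named receptor transcripts above the filter, over all the receptor genes, 0 passed.

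The glucocorticoid receptor is held by heat shock protein complexes until its ligand binds. Of 9 tested chaperone and corticosteroid enzyme genes, 1 rose, 2 fell and 6 did not pass (33.3% called, against 25.9% of all genes), with a median log2 change of -0.66. Hsp90ab1, the constitutive cytosolic HSP90, had 47.1, 54.9 and 38.5 FPKM in GFP-positive and 124.6, 421.6 and 339.1 FPKM in GFP-negative libraries. No GFP-positive library came near the GFP-negative ones (log2 change -2.48, SE 0.45, adjusted p = 0.0106). Hsp90aa1, its inducible paralogue, named after its values were seen, had 87.7 ± 30.8 FPKM in GFP-positive and 110.7 ± 12.1 FPKM in GFP-negative cells and did not pass (log2 change -0.39, adjusted p = 0.377). Reads shared between the 2 paralogues, or with their pseudogenes, could have been split by the quantification. Bag1, an HSP70 cochaperone known to restrain glucocorticoid receptor activity, rose: 76.2, 80.6 and 77.5 FPKM in GFP-positive against 32.6, 13.8 and 8.47 FPKM in GFP-negative libraries (log2 change 2.28, SE 0.44, adjusted p = 0.0117). St13, which encodes the HSP70-interacting protein HIP, fell by 1.11 on the log2 scale (adjusted p = 0.0455). Hsd11b1 and Hsd11b2, whose enzymes interconvert active and inactive glucocorticoid, were under the filter. Without GFP-negative M the adjusted p was 0.0567 for Hsp90ab1, 0.0536 for Bag1 and 0.171 for St13. Without GFP-positive 7 it was 0.0537 for Hsp90ab1, 0.0536 for Bag1 and 0.122 for St13, and the call of St13 held in 1 of 6 such fits, that without GFP-negative 9 (0.0146). Without the filter none of the 3 passed (Hsp90ab1 0.0529, Bag1 0.0560, St13 0.121), and St13 did not pass with the length trend removed (0.0997).

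Of 13 tested genes known as glucocorticoid targets, 3 rose, 3 fell and 7 did not pass, and the median log2 change was -0.39. The share called was 46.2%, against 25.9% of all genes (14.5% higher and 11.4% lower); whether the list differs from other genes was not tested. Mt2, a metallothionein gene, had 47.5, 50.9 and 48.3 FPKM in GFP-positive and 20.3, 8.64 and 12.1 FPKM in GFP-negative libraries (log2 change 1.88, SE 0.32, adjusted p = 0.00930). The related metallothionein gene Mt1 rose as well (1.95, adjusted p = 0.037). Tsc22d3, which encodes the glucocorticoid-induced leucine zipper GILZ, had 8.57, 12.4 and 12.5 FPKM in GFP-positive and 4.63, 6.73 and 4.49 FPKM in GFP-negative libraries (log2 change 1.01, SE 0.28, adjusted p = 0.0313). Under scaling to an equal sum its log2 change was 0.02. On the other side, Ddit4, an inhibitor of mTOR signalling, fell by 1.44 on the log2 scale (adjusted p = 0.0238). The clock gene Per1 had a log2 change of -1.12 (adjusted p = 0.041), and Klf9, a transcription factor gene responsive to both glucocorticoid and thyroid hormone, one of -1.31 (adjusted p = 0.0372). Fkbp5, an immunophilin gene commonly used as a readout of the receptor, had 4.60, 4.14 and 5.69 FPKM in GFP-positive and 3.76, 23.9 and 20.2 FPKM in GFP-negative libraries, so GFP-negative 9 lay below the GFP-positive libraries and the difference did not pass (log2 change -1.29, adjusted p = 0.131). Mt1, Per1 and Fkbp5 are named after their values were seen. Calls on this list fell to 0 without GFP-negative M, 1 without GFP-positive 7, 2 without GFP-positive 4 or GFP-negative 11 and 3 without GFP-positive 2. Without GFP-negative M the adjusted p was 0.0530 for Mt2, 0.125 for Tsc22d3, 0.104 for Ddit4 and 0.106 for Klf9. Mt2 passed in 5 of the 6 fits that left out 1 library, Tsc22d3 in 3, Ddit4 in 2 and Klf9 in 1, that without GFP-positive 2 (0.0186). With the length trend removed the log2 change of Mt2 was 1.09 (adjusted p = 0.0458), and Tsc22d3 (0.0646) and Klf9 (0.138) did not pass; without the filter Mt2 alone of the 4 passed (0.0431).

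Thra encodes thyroid hormone receptor alpha (chromosome 11, 98631464 to 98659832, plus strand, mm39). Its 9 named transcripts had 15.8, 19.0 and 13.1 FPKM in GFP-positive and 16.1, 18.6 and 26.4 FPKM in GFP-negative libraries. The groups overlapped, with GFP-positive 7 lowest and GFP-negative M highest. Means were 15.95 ± 2.95 FPKM in GFP-positive and 20.4 ± 5.35 FPKM in GFP-negative cells (SD, n = 3 each), a log2 difference of -0.33 (SE 0.28, 95% interval -0.96 to 0.31, adjusted p = 0.394). With the 4 unnamed isoforms of the locus the gene had 18.9, 22.6 and 15.4 FPKM in GFP-positive and 19.2, 30.2 and 31.0 FPKM in GFP-negative libraries (log2 difference -0.47, adjusted p = 0.216). Thra passed under 2 alternatives, scaling to an equal sum (log2 difference -1.35, adjusted p = 0.0132), which shifted the median of all genes to -0.84 and left Thra at -0.51 relative to it, and a weight for each library (-0.73, adjusted p = 0.0170).

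TRα2 was the larger of the 2 known isoforms in every library. ENSMUST00000064187, which encodes it, had 9.24, 11.0 and 7.24 FPKM in GFP-positive and 8.01, 13.4 and 12.9 FPKM in GFP-negative libraries (log2 difference -0.29, adjusted p = 0.600). ENSMUST00000103139, which encodes the hormone-binding TRα1, had 3.99, 6.07 and 4.08 FPKM in GFP-positive and 5.77, 0.173 and 10.1 FPKM in GFP-negative libraries (log2 difference 0.53, adjusted p = 0.740). GFP-negative 11 was thus nearly without the annotated TRα1 transcript, while GFP-negative M had the most. Without GFP-negative 11 the log2 difference of ENSMUST00000103139 was -0.67 (adjusted p = 0.329), and with a weight for each library it was -0.23 (adjusted p = 0.853). Leaving out any other single library gave 0.35 to 1.32. In GFP-negative 11 the unnamed isoform MSTRG.3710.4, which ends 1567 bases beyond TRα1, had 8.97 FPKM, against 1.60, 2.39 and 1.31 FPKM in GFP-positive and 1.98 and 1.89 FPKM in GFP-negative 9 and M. Transcripts that end at either of these sites together held 31.2%, 38.0% and 36.9% of the FPKM of the locus in GFP-positive and 41.3%, 30.6% and 45.0% in GFP-negative libraries. Transcripts that end with TRα2 held 60.5%, 57.5% and 54.7% in GFP-positive and 51.1%, 59.7% and 46.8% in GFP-negative libraries. On this count GFP-negative 11 no longer stood far from the others. Which exons MSTRG.3710.4 contains, and so which side of the printed fork it carries, was not analysed here.

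**Figure D2:**
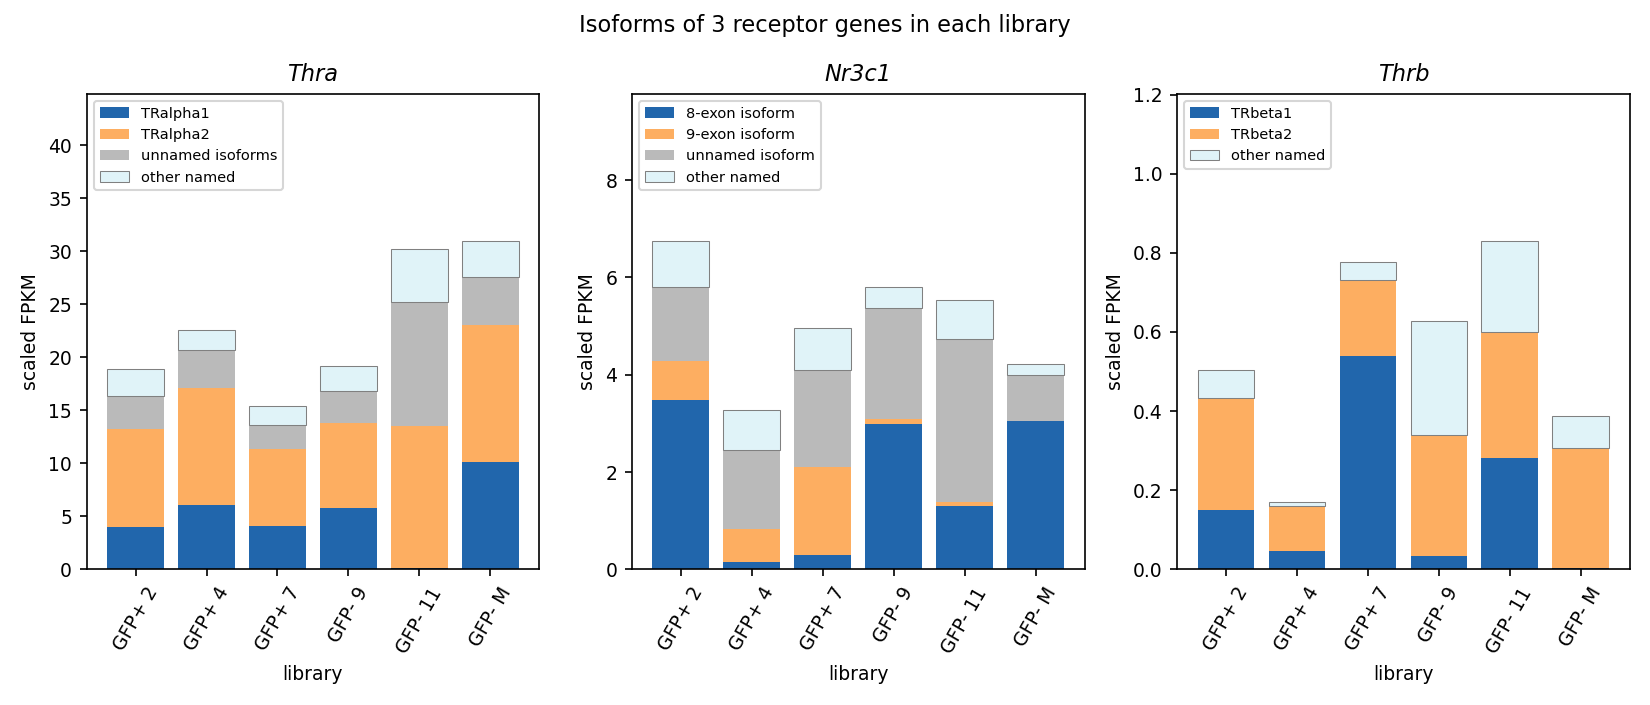
Scaled FPKM of the isoforms of Thra, Nr3c1 and Thrb in each library, stacked, with GFP-positive libraries (GFP+) on the left of each panel and GFP-negative libraries (GFP-) on the right; grey is isoforms without a gene name in the assembly. In GFP-negative 11, TRα1 is at 0.173 and the unnamed Thra isoforms are largest, and the 9-exon Nr3c1 isoform is larger in each GFP-positive library than in any GFP-negative one.

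The 3′ end of Thra overlaps Nr1d1 by 1075 nt on the opposite strand (chromosome 11, 98658758 to 98666287, minus strand, mm39). Nr1d1 encodes REV-ERBα, a nuclear receptor of the circadian clock that represses transcription, and the overlap is known to fall on the last exon of TRα2. Nr1d1 had 2.26, 3.27 and 1.36 FPKM in GFP-positive and 8.13, 7.66 and 7.00 FPKM in GFP-negative libraries. All GFP-positive libraries were below all GFP-negative ones, and the difference passed (log2 change -1.59, SE 0.31, adjusted p = 0.0121). It did not pass without GFP-positive 7 (adjusted p = 0.0571) or without GFP-negative M (0.0584). The libraries were made by a strand-specific method, but the strand setting of the quantification is not given in the sources that were used, and reads of the shared stretch may have been given to either gene.

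Thrb encodes thyroid hormone receptor beta (chromosome 14, 4431611 to 4809435, minus strand in mm39; the same gene lies on the plus strand in GRCm38). It had 0.505, 0.170 and 0.776 FPKM in GFP-positive and 0.627, 0.829 and 0.387 FPKM in GFP-negative libraries. The groups overlapped and GFP-positive 4 was the lowest (means 0.484 ± 0.304 FPKM in GFP-positive cells and 0.614 ± 0.221 FPKM in GFP-negative cells, SD, n = 3 each). The log2 difference was -0.21 (SE 0.33, 95% interval -0.96 to 0.54, adjusted p = 0.653). The transcript that encodes TRβ2, ENSMUST00000022304, had 0.282, 0.113 and 0.190 FPKM in GFP-positive and 0.306, 0.320 and 0.304 FPKM in GFP-negative libraries; TRβ2 is the isoform known mainly from pituitary, cochlea and retina. Every GFP-positive library lay below every GFP-negative one, but the transcript was under the filter, and fitted without it the log2 difference was -0.23 (adjusted p = 0.592). TRβ1, the widely expressed form, is encoded by ENSMUST00000022303, with 0.0704, 0.00124 and 0.366 FPKM in GFP-positive and 0.0329, 0.0207 and 0.00298 FPKM in GFP-negative libraries, and by ENSMUST00000091471, which was at 0 in GFP-negative 9 and M and at most 0.260 FPKM elsewhere. GFP-positive 7 was the highest library for ENSMUST00000022303.

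Thyroid hormone enters cells through transporters and is activated or inactivated by deiodinases. Of 5 tested genes of transport and deiodination, 0 rose, 1 fell and 4 did not pass (20% called, against 25.9% of all genes; median log2 change -0.95). The deiodinase genes Dio1, Dio2 and Dio3 were at or near 0 in all libraries and were not tested. Of 7 tested thyroid hormone targets, 0 rose, 3 fell and 4 did not pass (42.9% called; median -0.68). Gja1, the gap junction gene for connexin 43, had 3.66 ± 0.602 FPKM in GFP-positive and 13.1 ± 5.42 FPKM in GFP-negative cells (log2 change -1.62, adjusted p = 0.0162). Cdkn1a, which encodes the cell cycle inhibitor p21, had 43.8 ± 9.997 FPKM in GFP-positive and 101.3 ± 13.0 FPKM in GFP-negative cells (log2 change -1.22, adjusted p = 0.0177). Klf9, given above, was the third. Without GFP-negative M the adjusted p was 0.0788 for Gja1 and 0.0834 for Cdkn1a; without GFP-positive 7 it was 0.0587 for Gja1 and 0.0571 for Cdkn1a; and Cdkn1a also did not pass without GFP-positive 4 (0.0566). Without the filter on low genes neither passed (Gja1 0.0619, Cdkn1a 0.0523).

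The nuclear receptors share partners. Of 16 tested partners and coregulators, 0 rose, 4 fell and 12 did not pass (25% called, against 25.9% of all genes; median log2 change -0.64). Crebbp, a histone acetyltransferase and coactivator, had 3.14, 4.27 and 3.03 FPKM in GFP-positive and 10.9, 12.0 and 12.4 FPKM in GFP-negative libraries (log2 change -1.64, SE 0.25, adjusted p = 0.00740), and it passed whichever single library was left out (adjusted p 0.00421 to 0.0470). It did not pass with the length trend removed (log2 change -0.79, adjusted p = 0.0698), and adding unnamed isoforms gave -1.03 (0.0133). Nrip1, a corepressor also called RIP140, had 0.805 ± 0.424 FPKM in GFP-positive and 3.93 ± 1.03 FPKM in GFP-negative cells (log2 change -1.79, adjusted p = 0.0118). Ncoa2, a p160 coactivator, had 2.25 ± 1.01 FPKM in GFP-positive and 7.79 ± 0.760 FPKM in GFP-negative cells (log2 change -1.66, adjusted p = 0.0128). Without GFP-negative M the adjusted p was 0.0617 for Nrip1 and 0.0646 for Ncoa2, and without GFP-positive 7 it was 0.0560 for Ncoa2. Without the filter Nrip1 (0.0514) and Ncoa2 (0.0516) did not pass.

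The oestrogen receptors were listed at low values, other than Esr1 in GFP-negative 11, and none had a test. Esr1, which encodes ERα (chromosome 10, 4561593 to 4955614, plus strand, mm39; 10 transcripts), had 0.371, 0.179 and 0.332 FPKM in GFP-positive and 0.163, 1.27 and 0.341 FPKM in GFP-negative libraries. GFP-negative 11 stood above the rest and GFP-negative 9 below them, so the GFP-positive values lay between GFP-negative ones. Its main transcript, ENSMUST00000105590, codes for 599 amino acids and held 81.0% or more of the gene's FPKM in GFP-positive 4 and 7 and in GFP-negative 9 and M, 72.2% in GFP-negative 11 and 23.8% in GFP-positive 2. GFP-negative 11 was also the library with the highest fibroblast marker sum (700.7), of which Col1a1 was 690.9, while Dcn was lowest there. The part of these markers in the Esr1 value was not tested. Fitted without the filter, the log2 difference was -0.33 (adjusted p = 0.617).

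Esr2, which encodes ERβ (chromosome 12, 76167193 to 76224033, minus strand, mm39; 5 transcripts), had 0.301, 0.0977 and 0.0678 FPKM in GFP-positive and 0.0765, 0.517 and 0.191 FPKM in GFP-negative libraries. GFP-negative 11 was again the highest, and the groups overlapped (log2 difference -0.19 without the filter, adjusted p = 0.647). The transcript ENSMUST00000101291, which codes for 548 amino acids, carried the whole value in 4 libraries, 80.7% in GFP-negative 11 and 44.2% in GFP-negative M. Gper1, the membrane oestrogen receptor gene (chromosome 5, 139408906 to 139413555, plus strand, mm39; 2 transcripts), had 0.150, 0.0356 and 0.0509 FPKM in GFP-positive and 0.107, 0.290 and 0.163 FPKM in GFP-negative libraries, which rested on 0.971 to 6.57 kb of aligned sequence. The group ranges met through GFP-positive 2 alone, the single library in which the value lay on ENSMUST00000173364, a transcript annotated without a coding sequence (log2 difference -0.24 without the filter, adjusted p = 0.316). The coding transcript ENSMUST00000066211 was at 0.000222, 0.0356 and 0.0509 FPKM in GFP-positive and 0.107, 0.290 and 0.163 FPKM in GFP-negative libraries, without overlap (log2 difference -0.37 without the filter, adjusted p = 0.272).

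Gper1 lies inside 3110082I17Rik, a gene on the opposite strand, over all of its 4650 nt. That gene had 0.583, 0.669 and 0.471 FPKM in GFP-positive and 0.562, 4.25 and 2.82 FPKM in GFP-negative libraries, with GFP-negative 9 at the level of the GFP-positive libraries (log2 difference -1.25, adjusted p = 0.0958). It passed without GFP-negative 9 (adjusted p = 0.00452). As with Thra and Nr1d1, reads of the shared stretch may have been given to either Gper1 or 3110082I17Rik. The predicted genes Gm48320 and Gm48321 over Thrb and Gm7862 within Esr2 were at or near 0, with at most 0.521 FPKM.

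Neither list tied to oestrogen held a call, against 25.9% of all genes called, but only 6 and 5 of their genes were tested. Whether these lists differ from other genes was not tested. Of 6 tested genes of oestrogen synthesis and inactivation none passed (median log2 change 0.38), and Cyp19a1, which encodes aromatase, was under the filter. Hsd17b12 had 68.3 ± 5.53 FPKM in GFP-positive and 42.2 ± 19.7 FPKM in GFP-negative cells (log2 difference 0.79, adjusted p = 0.123). Of 5 tested oestrogen-related receptors and oestrogen targets, none passed either (median -0.15). Xbp1, a transcription factor gene of the unfolded protein response, had 23.4 ± 5.26 FPKM in GFP-positive and 29.8 ± 6.21 FPKM in GFP-negative cells (log2 difference -0.34, adjusted p = 0.369), and Ccnd1, which encodes cyclin D1, had 5.19 ± 1.51 FPKM in GFP-positive and 9.53 ± 5.47 FPKM in GFP-negative cells (log2 difference -0.65, adjusted p = 0.329). Hsd17b12 and Ccnd1 passed without GFP-negative 9 (adjusted p 0.0175 and 0.0183), and Xbp1 and Ccnd1 under scaling to an equal sum.

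Receptors for other hormones were set beside them for scale. Of 5 tested, 0 rose, 2 fell and 3 did not pass (40% called, against 25.9% of all genes; median log2 change -0.92). Insr, the insulin receptor gene, had 3.11, 2.68 and 2.94 FPKM in GFP-positive and 6.64, 7.35 and 6.89 FPKM in GFP-negative libraries, tight within each group and without overlap (log2 change -1.13, SE 0.24, adjusted p = 0.0145). Igf1r, the receptor gene for insulin-like growth factor 1, had 5.83 ± 1.02 FPKM in GFP-positive and 12.1 ± 3.30 FPKM in GFP-negative cells (log2 change -0.97, adjusted p = 0.0373). The gonadotropin receptor gene of Leydig cells, Lhcgr, and the thyrotropin receptor gene, Tshr, were at or near 0. Without GFP-negative M the adjusted p was 0.0699 for Insr and 0.113 for Igf1r; without GFP-positive 7 it was 0.0669 for Insr and 0.110 for Igf1r; and Igf1r passed in 1 of 6 such fits, that without GFP-negative 9 (0.0178). With the length trend removed the log2 change was -0.36 for Insr (adjusted p = 0.299) and -0.20 for Igf1r (0.6204), and without the filter Igf1r did not pass (0.0822).

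**Figure D3:**
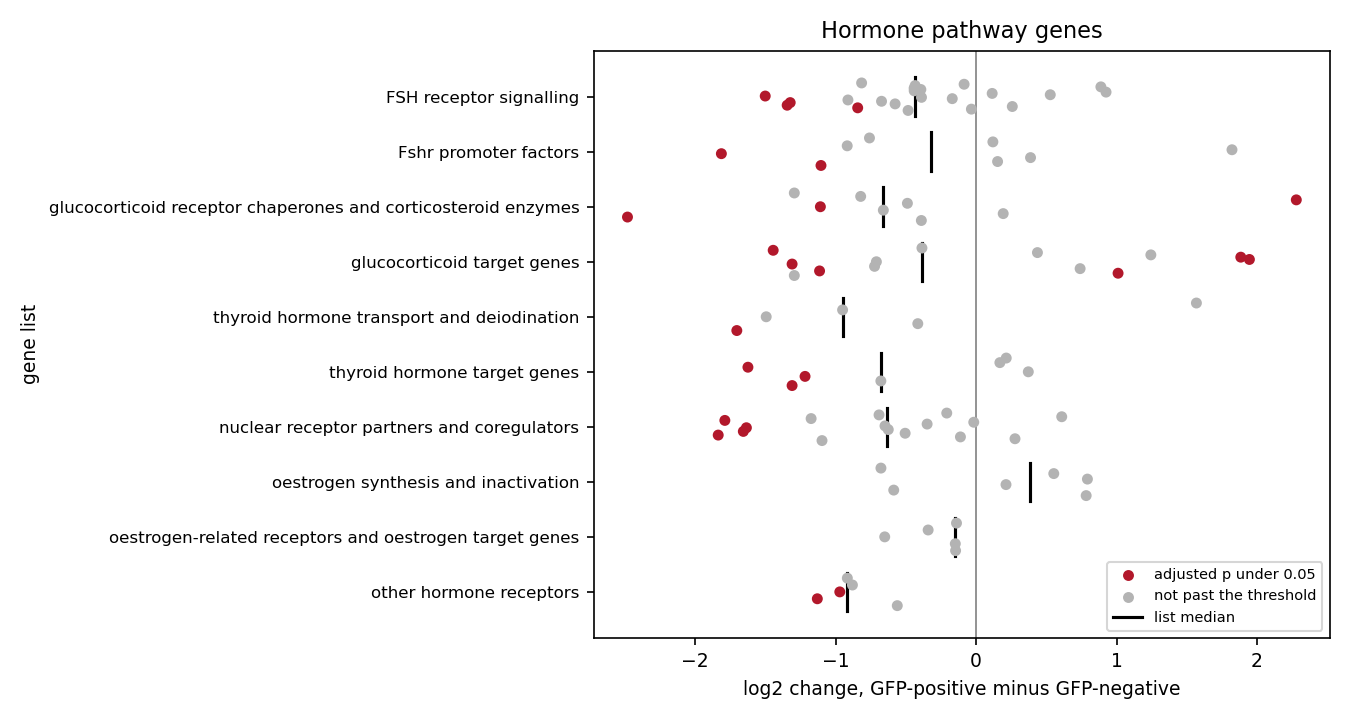
Log2 change of GFP-positive minus GFP-negative for each tested gene of the 10 hormone pathway lists, on log2(scaled FPKM + 0.5); red points passed an adjusted p of 0.05, grey points did not, and black bars are list medians. Of the lists, 9 have a median below 0 and the list of oestrogen synthesis and inactivation has one of 0.38.

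Over the 10 lists, counting each gene once, 94 of 116 genes could be tested: 4 rose and 20 fell. With both directions pooled, 25.5% were called, against 25.9% of all genes. By direction, falls outnumbered rises on the lists, while of all genes 14.5% rose and 11.4% fell. This contrast was not tested. The median log2 change was -0.49, against 0.02 over all genes tested. Scaling to an equal sum gave 2 rises and 63 falls among these genes, and 617 rises and 6281 falls over all genes. The number of calls among the 94 was 1 without GFP-negative M, 3 without GFP-positive 7, 11 without GFP-positive 4, 12 without GFP-negative 11, 15 without GFP-positive 2 and 37 without GFP-negative 9. It was 3 when genes of low level were kept in the test and 11 when a trend with transcript length was removed.

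**Figure D4:**
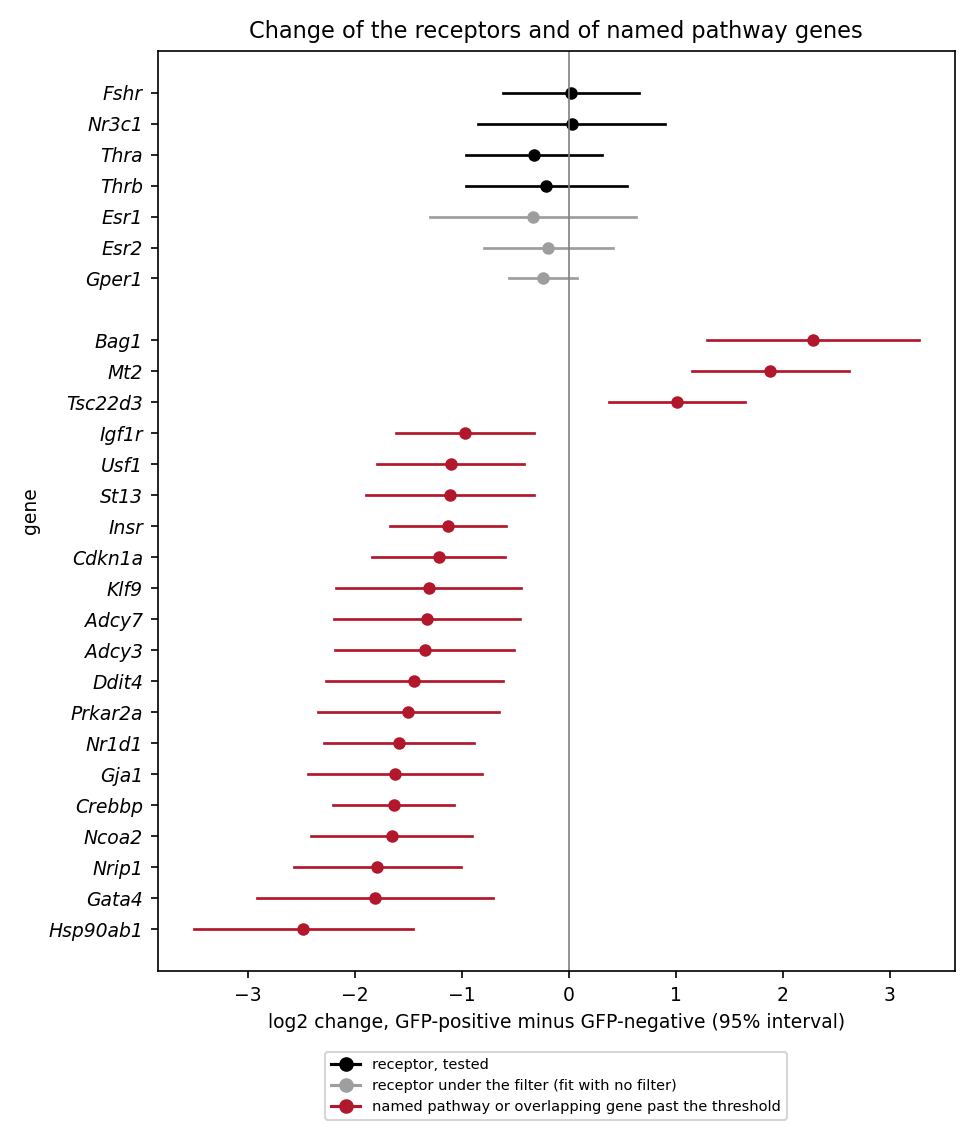
Log2 difference of GFP-positive minus GFP-negative with its 95% interval for the 7 receptors (black where tested, grey where under the filter and fitted without it) and for Nr1d1 and those pathway genes that passed and are among the 3 of lowest adjusted p in their list (red). The intervals of all 7 receptors include 0, and of the pathway genes drawn, Bag1, Mt2 and Tsc22d3 lie to the right of 0; Mt1, which also rose, is not drawn.

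The genes with the most similar profile to each receptor were found by the root-mean-square distance between mean-centred log2 levels over the 6 libraries, among all tested genes with a symbol. For Fshr they were Tbc1d17 (0.063 on the log2 scale) and Optn (0.066), against a deviation of Fshr from its own mean of 0.191. For Nr3c1 they were Bcap29 (0.115) and Zc3h15 (0.117), against its own deviation of 0.447. For Thra they were Kctd2 (0.030) and Tctn2 (0.034), against 0.303, and for Thrb they were Mier3 (0.077) and Nif3l1 (0.083), against 0.337. The genes were chosen as the closest of all, so their closeness is a description and was not tested.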

How the data were processed

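Total RNA was extracted with TRIzol, treated with DNase, depleted of ribosomal RNA and made into strand-specific libraries by the dUTP method, per the labels' protocols. Reads were handled with Trimmomatic, HISAT2 and StringTie on the build mm39, per the submitters' processing notes, which name no versions. The deposited tables give the authors' FPKM and mean per-base coverage for each transcript, per the file headers. Coverage over FPKM gave the aligned bases of each library. Read counts were not used, so no counting interval is given.

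A gene's FPKM was the sum over transcripts that carry its name; unnamed isoforms at named loci (7902, 5.36% to 8.16% of FPKM) were added only in an alternative, which could assign 6477 of them. Scaling used the median of ratios, taken over those of the 12528 genes averaging 1 FPKM or more that were above 0 in every library. Genes with a mean scaled FPKM under 0.5, or a longest transcript under 200 nt, were left out. Values were tested as log2(scaled FPKM + 0.5), which understates changes of low genes, with limma 3.58.1 in R 4.3.3 (mean-variance trend) over all 6 libraries; differences are GFP-positive minus GFP-negative, p-values were adjusted over all genes by the Benjamini-Hochberg method, and 0.05 was the threshold. The method was tested on simulated data. The fit was repeated under 20 other settings: pseudocount, filter, scaling, variance model, library weights, gene definition, length trend, threshold and libraries left out.

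The text names all receptors; from each list the 3 called genes of lowest adjusted p at most, and where no gene was called the 2 most abundant; the 2 nearest profiles of each tested receptor; and genes that overlap a receptor. Some genes that this rule takes are not reported here. Receptors and lists were chosen with earlier results of these data known. All 43 receptor transcripts matched GENCODE M21 (GRCm38) by identifier; promoter sequence is from RefSeq (GRCm38.p6). Gene coordinates are in mm39, as deposited, and were not converted. Tables were read with pandas 2.3.3 in Python 3.11.15 and drawn with matplotlib 3.10.9.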

Additional observations from a re-analysis of the deposited data

How the results depend on the processing

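No paired analysis was possible because the groups share no replicate numbers. No receptor difference passed the threshold under any alternative other than Thra, which passed at -1.35 under scaling to an equal sum and at -0.73 with library weights. Scaling to an equal sum gave 6898 called genes, 65 called pathway genes, and log2 differences of -0.75 for Fshr, -0.85 for Nr3c1, -0.47 for Gper1 and -0.25 for Hsd17b12; it moved the median of all genes to -0.84, relative to which Fshr was at 0.09, Nr3c1 at -0.01, Thra at -0.51 and Thrb at 0.12. Library weights, estimated gene by gene because the likelihood method stopped before it converged, gave 8327 called genes, 51 called pathway genes and 1 called receptor transcript, with -0.22 for Fshr, -0.072 for Nr3c1 and 0.21 for Thrb. Adding unnamed isoforms gave -0.090 for Nr3c1 and 0.036 for Xbp1. Removing a trend with transcript length gave 2014 called genes, 11 called pathway genes, 0.16 for Thrb and 0.58 for Nr3c1 (adjusted p = 0.304). Without the filter there were 1084 and 3 calls, at a threshold of 0.01 there were 505 and 2, and a pseudocount of 0.1 gave -0.69 for Gper1. A further fit left out both GFP-negative 11 and M, the 2 libraries of highest fibroblast marker sum, most of which was Col1a1. In it GFP-negative 9 stands alone and is assumed to vary like the GFP-positive libraries, so lost calls there say nothing of stability. There limma made 0 calls among genes (3358 at an unadjusted p under 0.05) and 0 among pathway genes, and gave -0.0033 for Fshr, -0.20 for Nr3c1, 0.25 for Esr1, 0.17 for Esr2, 0.51 for Ccnd1 and 0.014 for 3110082I17Rik. Leaving out 1 library at a time, with the scaling and gene set kept, gave 448 (without GFP-negative M) to 5604 (without GFP-negative 9) called genes, 1 to 37 pathway genes and 0 to 1 receptor transcripts. The log2 difference then ranged from -0.12 to 0.19 for Fshr, from -0.33 to 0.38 for Nr3c1, from -0.48 to -0.13 for Thra and from -0.42 to 0.043 for Thrb. The cause of these shifts was not tested. Thrb could not be tested at a filter of 1, and Esr1, Esr2 and Gper1 had no value where the setting applied to tested genes alone. Their low coverage limits what could be detected.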
